A study of Mus musculus with 2 samples.

Results

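The genes described here build the brush border, the carpet of microvilli on the apical face of intestinal epithelial cells. They are Vil1, Espn, Pls1 and Eps8, whose products bundle or cap the actin core of a microvillus, Myo1a and Ezr, whose products tie that core to the plasma membrane, and Cdhr2, Cdhr5, Ush1c and Myo7b, whose products form the adhesion complex at microvillus tips. They were chosen by gene symbol, and 13 of the 45101 probe sets of the array carried the symbol of 1 of these 10 genes, so that all 10 were measured among 18194 named genes. A probe set is a group of short oligonucleotides that together report a transcript. Total RNA was measured on 2 Affymetrix Mouse Genome 430 2.0 arrays, 1 for the colon and 1 for the small intestine. Both came from tissue labelled as biopsy of wild-type adult mice, and no treatment is named for either. How many animals stand behind each array is not given in the labels or methods. In the study's text the mice were C57B6, the tissues were jejunum and distal colon, and both tissues came from shared animals, which may or may not hold for these arrays.

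In the intestine, actin filaments of a microvillus are held in a tight bundle by villin, espin and plastin 1 (fimbrin), and are rooted in the terminal web, a mesh of myosin, spectrin and keratin below the membrane. The protocadherins CDHR2 and CDHR5 reach across from neighbouring microvilli and bind each other, and their cytoplasmic tails are held by harmonin, the product of Ush1c, and the motor myosin VIIb. Close relatives of these adhesion proteins link the stereocilia of sensory hair cells of the inner ear. The brush border carries digestive enzymes and nutrient transporters, and is known to be taller and denser on villus enterocytes of the small intestine than on the surface cells of the colon.

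The arrays allow 1 comparison, between small intestine and colon. There was 1 array per tissue, so the values below carry no replicate error, nothing was tested, and precision is limited by the number of arrays. Levels are the deposited log2 expression values, and differences are log2 values of the small intestine minus the colon, with values below a background of 5 raised to 5 first. A difference of 3-fold or more is a call. Levels of different probe sets depend on their oligonucleotides, so each gene was compared only with itself in the other tissue. Where a gene had several probe sets, that with the highest mean over both arrays stood for it.

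All 10 brush border genes had a higher value on the small intestine array than on the colon array, and so did all 13 of their probe sets. The differences ran from 0.46 for Cdhr5 (1.37-fold) to 2.99 for Espn (7.94-fold), with a median of 1.31 (2.48-fold). Espn, Myo1a, Pls1 and Vil1 reached 3-fold, a further 3 genes (Cdhr2, Ezr and Myo7b) reached 2-fold, and Ush1c, Eps8 and Cdhr5 stayed under 2-fold. None was called higher in the colon. All 10 lay above background on both arrays. Of the 9814 genes that did so, 46.3% had a higher value in the small intestine, 10.5% were at least 2-fold and 4.81% at least 3-fold higher there, and the median difference was -0.07.

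**Figure D1:**
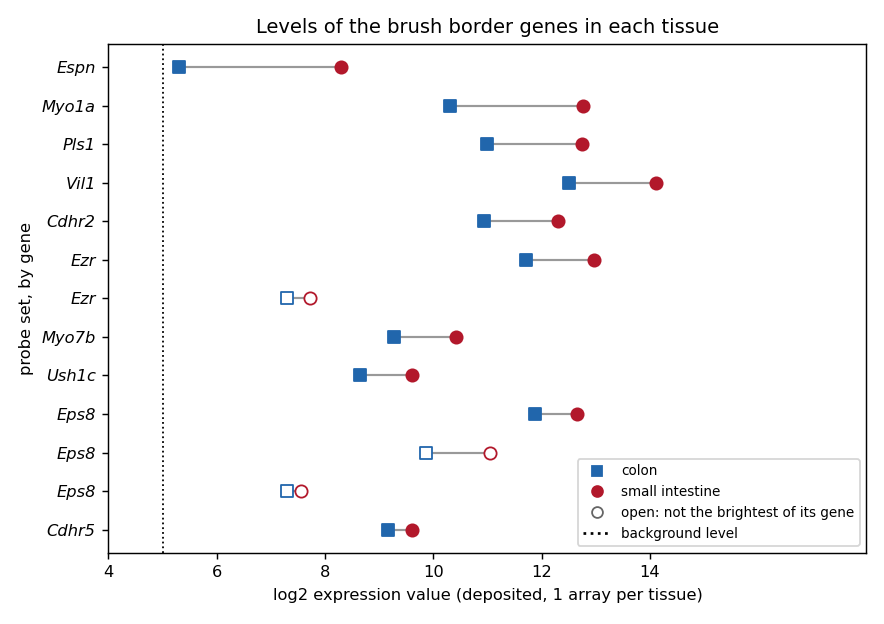
Deposited log2 expression values of the 13 probe sets of the 10 brush border genes on the colon array (squares) and the small intestine array (circles), with genes ordered by difference. Filled symbols mark the probe set that stands for its gene, open symbols the others, and the dotted line the background level of 5. Every circle lies to the right of its square, and only the colon value of Espn, 5.31, lies close to the dotted line.

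Among the genes of the actin core, villin (Vil1), which bundles and can also sever actin filaments, had 12.51 in colon and 14.11 in small intestine. Its difference of 1.60 (3.02-fold) sat just past the 3-fold line at 1.585, and just under it, at 1.581, when the arrays were centred on their hybridization controls. Plastin 1 (Pls1), the intestinal fimbrin, had 11.00 in colon and 12.74 in small intestine, a difference of 1.74 (3.35-fold). Both genes were thus bright on both arrays and brighter in the small intestine.

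Espin (Espn), a bundling protein also found in hair cell stereocilia, had 5.31 in colon and 8.29 in small intestine. At 2.99 (7.94-fold) this was the largest difference among the 10 genes, and 1.24% of the 9814 genes had a larger one. The colon value lay only just above background, so the size of this fold rests on a dim level. It was 2.29 with a background of 6. Its single probe set is marked by the manufacturer as matching several transcripts of the gene, as are those of Cdhr5 and Ush1c.

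Eps8 encodes a protein that caps and bundles actin filaments at the microvillus tip. On its brightest probe set, which is marked as open to transcripts of several genes, it had 11.87 in colon and 12.65 in small intestine, a difference of 0.77 (1.71-fold). Its other probe sets had 9.86 and 11.05, a difference of 1.18 (2.27-fold), and 7.29 and 7.56, a difference of 0.27 (1.21-fold). The 3 probe sets shared a direction and differed in size.

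Of the membrane linkers, brush border myosin I (Myo1a), the motor that forms the side arms between the core bundle and the membrane, had 10.31 in colon and 12.76 in small intestine. The difference of 2.45 (5.47-fold) was the second largest of the 10 genes, and 1.83% of the 9814 genes exceeded it. Ezrin (Ezr), which anchors the core filaments to membrane proteins once it is phosphorylated, had 11.71 in colon and 12.97 in small intestine, a difference of 1.26 (2.39-fold). A second and dimmer probe set of Ezr had 7.30 and 7.72, which is 0.42 (1.34-fold). The latter set carries the mark for oligonucleotides that may match other genes.

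The genes of the adhesion complex differed by 0.46 to 1.36. The protocadherin gene Cdhr2 had 10.94 in colon and 12.30 in small intestine, a difference of 1.36 (2.56-fold). Its partner Cdhr5 had 9.16 and 9.61, and its difference of 0.46 (1.37-fold) was exceeded by 24.3% of the 9814 genes. The scaffold gene Ush1c had 8.64 and 9.61, a difference of 0.98 (1.97-fold), and the motor gene Myo7b 9.28 and 10.42, a difference of 1.14 (2.21-fold). All 4 genes had their higher value in small intestine, and none of them reached 3-fold.

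**Figure D2:**
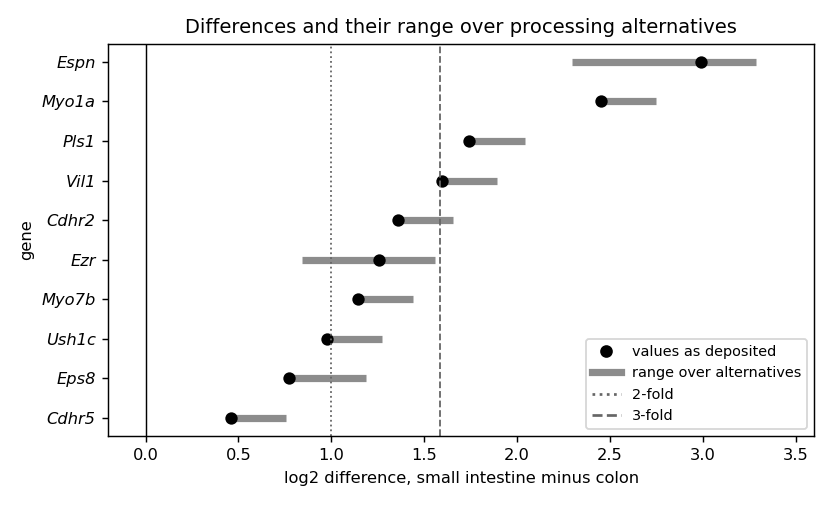
Log2 difference of each brush border gene, small intestine minus colon, with the deposited values (points) and its range over the processing alternatives that gave a value (grey bars). The dotted line marks 2-fold and the dashed line 3-fold. All bars lie above 0, and those of Vil1 and Cdhr2 cross the 3-fold line. Several alternatives could not move the value of a given gene, so a short bar is not a small error.

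The order of the 10 differences is loose. Probe sets of the same gene, over 3535 genes with several of them above background, had a pooled SD of 0.54 in their differences. Among neighbours in the order, only Myo1a and Pls1, 0.71 apart, were separated by more than that. For 8 of the 10 genes a single probe set gave the value. The spread between animals is not known from these arrays.

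On the small intestine array, control transcripts added to the RNA before labelling were less well represented toward their 5' ends. Their 8 probe sets for 5' ends differed by -2.73 to -0.68, and their 8 probe sets for 3' ends by -0.04 to 0.61. The 5' probe set of Gapdh differed by -1.27 and its 3' set by 0.02, whereas those of Actb differed by 0.00 and 0.34. The part of these shifts at 5' and 3' ends in the differences of the brush border genes was not tested. Of the 18 probe sets of hybridization controls, added after labelling, the differences ran from -1.52 to 0.33, with a median of 0.02.

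RNA of whole tissue was measured, so that more absorptive cells, less RNA of other cells or tissues, and more transcript per cell cannot be told apart. Of 20 pan-epithelial marker genes, Ovol1, a transcription factor, was 3.09-fold higher in small intestine and Esrp1, a splicing regulator, 3.32-fold higher in colon, and the other 18 were not called. Ovol1 was at 1.43 with a background of 6, and Esrp1 at -1.43 relative to the median of the list, both under 3-fold. By any amount 12 of the 20 were higher in colon and 7 in small intestine. The list's median difference was -0.30, and its summed level was 16.53 in colon and 16.58 in small intestine on the log2 scale. Among all genes, 3.46% were called for small intestine and 3.33% for colon. Relative to the median of this list the 10 brush border genes had a median difference of 1.61, and Cdhr2, at 1.66, then also passed 3-fold.

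Markers of particular cell types moved with tissue. The lists were chosen with earlier results of these data known, so these counts are descriptions only. Markers of colonocytes, the absorptive cells of the colon, were called for colon in 9 of 9 cases, with a median of -4.70. With the pan-epithelial centring 8 of 9 were called. Of the smooth muscle markers, 5 of 10 were called for colon, and the median was -1.65. Relative to the pan-epithelial median 2 of these 10 were called, since Actg2, Smtn and Tagln then had differences of -1.52, -1.54 and -1.52. Goblet cell markers were called for colon in 6 of 9 cases, with a median of -2.20. Markers of the exocrine pancreas, which is not part of the colon, were called for colon in 10 of 10 cases. Their levels were 9.76 to 13.95 in colon and 2.30 to 5.68 in small intestine. Leukocyte markers were called for small intestine in 7 of 11 cases, with a median of 1.89, or in 2 of the 9 that could still be measured, with a median of 0.19, once probe sets open to several transcripts or genes were left out. The part of these cells, and of pancreas RNA, in the differences of the brush border genes and the pan-epithelial markers was not tested. Tuft cells, rare chemosensory cells with long microvilli of their own, gave 9 measured markers of which none was called and 5 lay at background on both arrays, including their defining factor Pou2f3 at 2.91 and 2.92.

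The protein families of these genes held members with other patterns. In the villin and gelsolin family, advillin (Avil) differed by 0.02 and villin-like (Vill) lay below background on both arrays, while gelsolin (Gsn), scinderin (Scin) and Capg had differences of -0.75, -1.05 and -0.57. Vil1 alone among the 6 family genes measured here was past 3-fold, which it missed narrowly with the centring on hybridization controls. Among the plastins, Pls3, widely used outside the gut epithelium, differed by -0.17, and Lcp1, the leukocyte plastin, by 1.68 (3.20-fold), or 1.47 as the median over its probe sets. Levels of Lcp1 were 8.34 in colon and 10.02 in small intestine. The part of leukocytes in this difference was not tested.

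Of the class I myosins, Myo1c, Myo1d and Myo1e differed by -0.62, 0.44 and 0.01, against 2.45 for Myo1a. Of the ezrin, radixin and moesin family, radixin (Rdx) had 8.24 in colon and 8.25 in small intestine, and moesin (Msn), the form of leukocytes and endothelium, had 7.37 and 9.11. The 3.36-fold difference of Msn was 0.76 on the log2 scale as the median over its probe sets, the other of which lay at background. In the Eps8 family, Eps8l2 and Eps8l3 differed by 0.86 and 1.03, close to Eps8 itself, and Eps8l1 lay below background on both arrays. The relatives of this and the foregoing paragraph came from lists of related genes and were grouped into families after their values were seen.

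**Figure D3:**
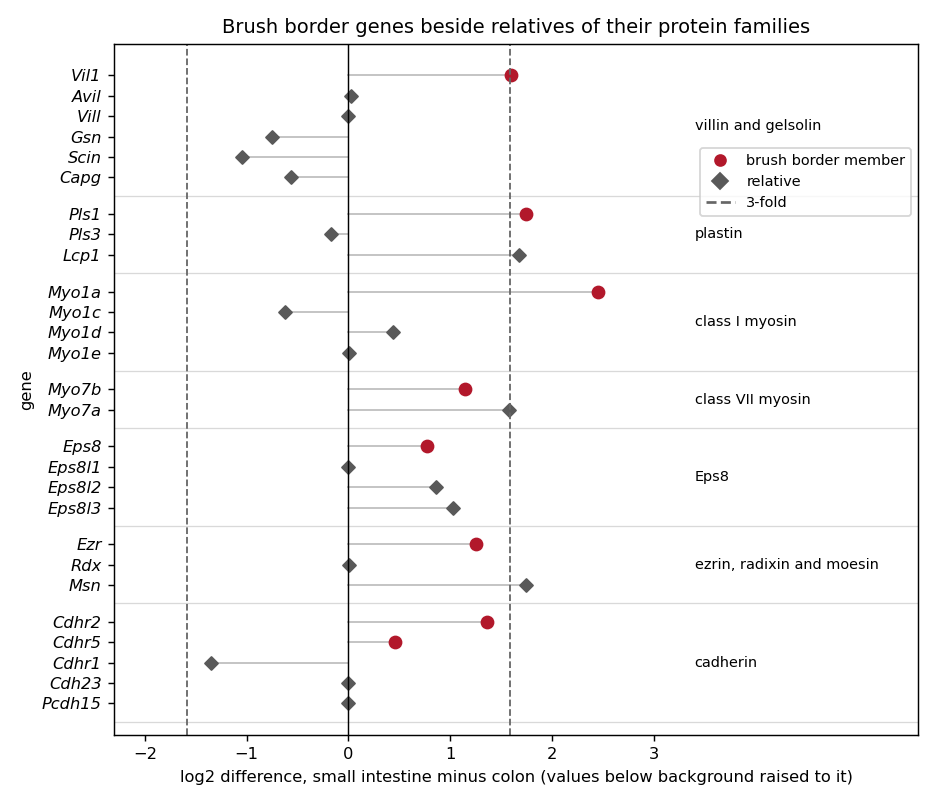
Log2 difference, small intestine minus colon, of brush border genes (red circles) and of relatives in the same protein family (grey diamonds), with values below the background of 5 raised to 5 and dashed lines at 3-fold in each direction. Vil1 at 1.60 and Myo1a at 2.45 stand to the right of all relatives shown for them, whereas Lcp1, Myo7a and Msn lie near or beyond Pls1, Myo7b and Ezr.

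Counterparts in the sensory stereocilium were mostly dim. Of 9 measured genes of that list, 7 lay at background on both arrays, among them Cdh23 (2.73 in colon and 3.39 in small intestine) and Pcdh15 (3.33 and 3.34), which form the tip links of hair cells. None was called in either tissue with the background of 5. Myo7a, the paralog of Myo7b, had 4.70 and 6.58, and its difference of 1.579 lay just under the 3-fold line, which it passed at 1.88 with a background of 4. The photoreceptor cadherin gene Cdhr1 had 6.35 in colon and 3.10 in small intestine, a difference of -1.35, or -2.35 with a background of 4.

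Direct partners of the adhesion complex and the scaffolds under the membrane were all higher in the small intestine. Anks4b, whose product binds harmonin and myosin VIIb, had 10.58 in colon and 11.29 in small intestine, a difference of 0.71. Calml4, a light chain of myosin VIIb, had 13.44 and 14.07, a difference of 0.63. Both were in the range of Ush1c and Cdhr5 and under 2-fold. The scaffold Slc9a3r1 (NHERF1), which joins ezrin to membrane proteins, had 11.10 and 13.53 (5.38-fold), with 3 probe sets between 2.40 and 2.66. Pdzk1, a PDZ scaffold of apical transporters, had 3.49 in colon, below background, and 12.07 in small intestine, which is at least 135-fold. So 2 of these 4 genes were called. The single probe set of Pdzk1 is marked as open to several transcripts of the gene.

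Other microvillus actin and linker genes were mostly under the fold. Of 26 measured, 3 were called for small intestine and 1 for colon, with a median difference of 0.01. Besides Msn and Lcp1 these were Cobl, an actin nucleator of the brush border, with 7.58 in colon and 9.45 in small intestine (3.65-fold), and Slk, a kinase of ezrin, with 9.41 in colon and 7.76 in small intestine (3.16-fold higher in the colon). Cobl had 0.94 as the median over its probe sets, where none of the 3 was called higher in the small intestine. Myo6, named after its values were seen, was at -0.25 on its brightest probe set. With the median over probe sets it was at -1.98 and was called for colon. Slk was at -1.03 without probe sets open to several transcripts and at -1.36 relative to the pan-epithelial median. None of 14 terminal web genes was called, and their median was -0.45, or -0.14 with the median over probe sets. Some of their dimmer probe sets were past 3-fold. Those of Myh9 ran from -1.07 to 1.98 and those of Tpm1 from -1.83 to 0.00, both genes named after their values were seen. Of 17 genes of apical trafficking and assembly 1 was called, the annexin Anxa13, with 8.72 in colon and 12.74 in small intestine (16.1-fold), and the median was 0.36.

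The enzymes and transporters that sit on microvilli had the larger median difference. Of 16 measured, 13 were called for small intestine and none for colon, and their median difference was 4.62 (24.6-fold), against 1.31 for the 10 cytoskeleton and adhesion genes. Lactase (Lct) had 3.05 in colon and 13.34 in small intestine, at least 324-fold, and aminopeptidase N (Anpep) had 3.72 and 12.95, at least 247-fold. The amino acid transporter Slc6a19 had 3.93 and 11.73, at least 106-fold, and the peptidase Enpep 7.81 and 14.12, which is 79.3-fold. All 4 exceeded the largest difference among the cytoskeleton and adhesion genes. The other 3 genes of the list were the sodium-proton exchanger Slc9a3 at -0.13, the mucin Muc13 at 0.05 and the protease Mep1a at -0.83, all named after their values were seen. No test of the difference between the 2 lists was made.

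**Figure D4:**
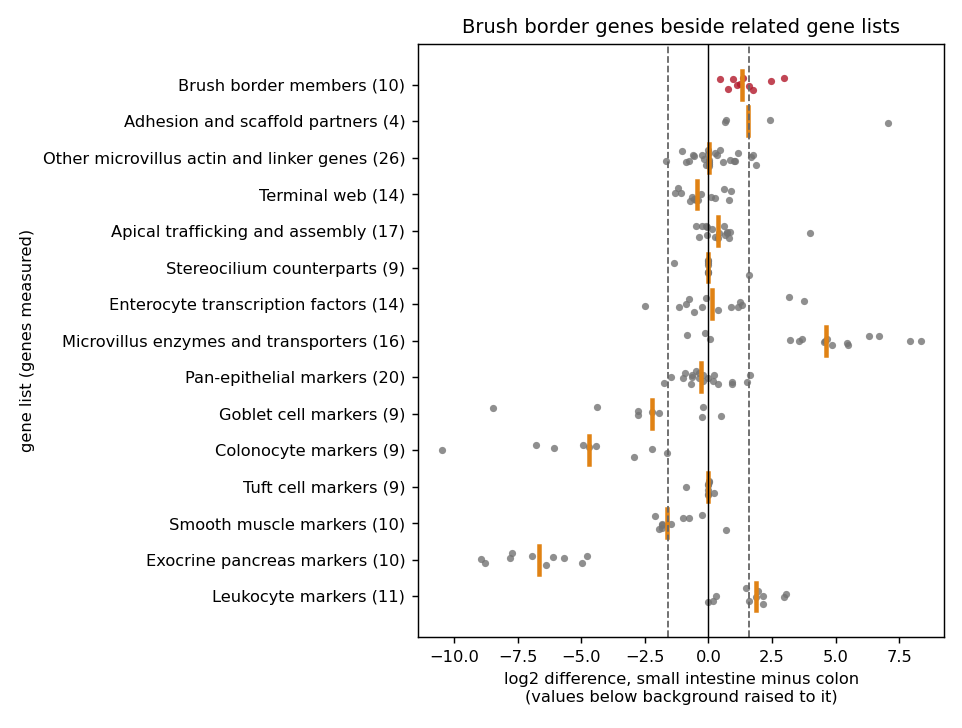
Log2 difference, small intestine minus colon, of every measured gene (points) of the brush border set (red, top) and of 14 related or cell type lists, with values below background raised to 5, list medians as orange bars and dashed lines at 3-fold. The brush border genes, with a median of 1.31, all lie above 0 and below the median of the microvillus enzymes and transporters at 4.62, whereas the terminal web and pan-epithelial medians are -0.45 and -0.30.

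Among transcription factors of enterocyte differentiation, 2 of 14 were called for small intestine and 1 for colon, with a median of 0.14. Without probe sets open to several transcripts or genes, 3 and 2 were called, with a median of 0.64. With the median over probe sets, 2 were called in each direction, with a median of -0.12. Hnf4g had 4.82 in colon and 8.74 in small intestine (at least 13.4-fold), and Gata5 3.39 and 8.16 (at least 8.94-fold). These are their brightest probe sets. The 3 probe sets of Hnf4g differed by 0.72 to 3.74, and the 2 of Gata5 by 2.84 to 3.16. Atoh1, the factor of secretory cells, had 10.42 in colon and 7.94 in small intestine (5.57-fold higher in the colon). Hnf4a, Cdx1 and Cdx2, named after their values were seen, differed by -0.11, -0.89 and 0.39 and were not called on their brightest probe sets. The 4 probe sets of Hnf4a ran from -0.72 to 1.85, and Hnf4a was called at 1.85 without probe sets open to several transcripts or genes. Factors of the Hnf4, Cdx, Hnf1 and Gata families are known regulators of enterocyte genes.

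Since the brush border genes shared a direction, their promoters were searched for the binding letters of these families. RefSeq promoter sequences of build GRCm38.p6 matched 8 of the 10 genes by symbol, all but Myo7b and Eps8, with 10 promoters in all. The search covered the 250 bases before each start on both strands. The HNF4 motif CAAAGTCCA was in none of the 8 genes and in 0.384% of all 32851 promoters. The CDX motif TTTATNG was in 1 gene, Espn, through 1 of its promoters, and in 9.81% of all promoters. The HNF1 core GTTAAT was in 1 gene, Cdhr2, and in 6.43% of all promoters. Counted by promoter, as these shares are, each of the 2 motifs was in 1 of the 10. The GATA motif AGATAA was in none and in 9.99% of all promoters. A match is a description of letters and not of a bound site, and no match says only that these letters are not in this window. The promoters with a match are shown, with the motif in capitals, beside that of Vil1, a classical marker gene of the brush border, which held none.
Espn, promoter at chr4:152128926-152129175 on the minus strand, 1 of 3 of this gene, with the CDX motif at -197 to -191 from the start: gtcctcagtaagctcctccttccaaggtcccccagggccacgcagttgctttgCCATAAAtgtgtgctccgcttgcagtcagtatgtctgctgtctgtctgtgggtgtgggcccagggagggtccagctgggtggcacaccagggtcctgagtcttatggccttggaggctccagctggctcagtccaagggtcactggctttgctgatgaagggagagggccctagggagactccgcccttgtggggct
Cdhr2, promoter at chr13:54701213-54701462 on the plus strand, with the HNF1 core at -54 to -49 from the start: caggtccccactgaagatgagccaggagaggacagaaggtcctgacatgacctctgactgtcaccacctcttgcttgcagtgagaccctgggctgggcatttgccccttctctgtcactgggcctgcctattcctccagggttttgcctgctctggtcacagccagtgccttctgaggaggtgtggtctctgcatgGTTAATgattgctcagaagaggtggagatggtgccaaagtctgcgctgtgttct
Vil1, promoter at chr1:74409134-74409383 on the plus strand: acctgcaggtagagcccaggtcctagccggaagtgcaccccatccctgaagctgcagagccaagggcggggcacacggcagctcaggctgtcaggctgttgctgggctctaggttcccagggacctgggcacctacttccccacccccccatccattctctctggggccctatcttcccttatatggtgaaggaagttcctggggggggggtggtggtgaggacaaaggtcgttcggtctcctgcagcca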

How the data were processed

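Total RNA of colon and small intestine was extracted by the authors with RNeasy, and 1 Affymetrix Mouse Genome 430 2.0 array per tissue was hybridised with biotin-labelled material. The authors deposited log2 expression values per probe set, already normalized. The submitters' processing notes name GCRMA, the methods of the study name RMA, and no version is given. GCRMA can widen folds against a dim value. The set of arrays normalized together is not given in these sources.

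No further scaling was applied. Of 45101 probe sets, 34958 had 1 gene symbol in the platform annotation, 932 had several and were not used, and 9211 were not listed in that table. The probe set with the highest mean over both arrays stood for its gene. The symbols of all 10 members matched RefSeq by Entrez identifier. A call is a difference of 3-fold after raising values below 5 to 5. Of 196 entries in 14 lists, 178 were measured.

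The members and lists were chosen with earlier results of these data known. From each list of related genes and from the pan-epithelial markers, the text names up to 4 genes past 3-fold with the largest differences. It also names up to 2 past 3-fold that oppose the list's median, every member, every adhesion partner, and others as said. The other cell type lists are given mainly as counts. Actg2, Smtn, Tagln and Pou2f3 were named outside this rule, as were Cdh23, Pcdh15, Myo7a and Cdhr1 of the stereocilium list. The code of the call rule was checked on simulated data. These held no spread between animals, so the check says nothing of how firm the calls are. Alternatives were backgrounds of 4 and 6, no floor, folds of 2 and 5, quantile normalization, centring on the median, on hybridization spike-ins or, chosen after seeing the data, on pan-epithelial markers, and the median over probe sets, the highest value on either array, or leaving out probe sets marked _x, _s or _a. Python 3.11.15, numpy 2.4.6, pandas 2.3.3 and matplotlib 3.10.9 were used.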

Additional observations from a re-analysis of the deposited data

How the results depend on the processing

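All 97 values of the 10 genes under the alternatives of background, scaling and probe set choice stayed above 0, and 95 of them stayed on their side of 3-fold. Many of these values could not move, so the count does not measure how firm the differences are. The choice of background could change only Espn. Probe set choice could not change the 8 genes with 1 probe set, except to leave them out. The centrings shifted all 10 genes alike. Vil1 fell just under it, at 1.581, after centring on hybridization spike-ins, and Cdhr2 passed it at 1.66 after centring on pan-epithelial markers, a setting chosen after seeing the data. The count of 4 genes past 3-fold was 7 at a fold of 2 and 2 at a fold of 5. Without probe sets marked as shared Espn, Cdhr5 and Ush1c could not be measured, and 3 of the other 7 genes were past 3-fold. The median of the 10 genes ran from 1.27 with the median over probe sets to 1.61 with the pan-epithelial centring. Among the lists, the count of leukocyte markers was 7 of 11, and 2 of 9 without these probe sets. Smooth muscle markers higher in colon were 5 of 10, 3 of 8 without these probe sets and 2 of 10 with the pan-epithelial centring. Other microvillus actin genes higher in the small intestine fell from 3 to 0 with the median over probe sets. Those called for colon rose from 1 to 2 there and with the highest value on either array, as Myo6 was then called. The stereocilium list had 1 call in each direction with a background of 4 or no floor, and 1 for small intestine with 3 of the scalings. Enterocyte transcription factors called for colon rose from 1 to 2 without probe sets marked as shared and with the median over probe sets. No called gene reversed its sign. With 1 array per tissue no replicate could be left out. No paired analysis was possible because each tissue had 1 array. Depth does not apply to arrays, and dim levels limit the fold of Espn and of genes below background in a tissue.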
